A study of Mus musculus with 55 samples.

Results

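The corticotropin-releasing hormone (CRH), oxytocin and vasopressin system was examined through 7 genes chosen by name: Crh, Crhbp, Crhr1, Crhr2, Oxtr, Avpr1a and Avpr1b. These are 7 of the 45318 genes listed in the count tables. The RNA came from the ventral dentate gyrus of 54 young adult male C57/BL6J mice, 1 animal per RNA sample. From weaning the mice were raised in standard housing (SH) or an enriched environment (EE). Part of each cohort then went through chronic social defeat stress (CSDS), in which a mouse is repeatedly exposed to an aggressive CD1 male, and was ranked resilient (RES) or susceptible (SUS) by its ratio in the social interaction test. The other mice of each cohort were unstressed controls. The 6 groups were SH control with 10 mice, SH RES with 7, SH SUS with 10, EE control with 9, EE RES with 9 and EE SUS with 9. No mouse carried a transgene, and the labels gave neither the cage nor a sequencing batch or date, so mice that shared an enriched cage cannot be told apart from independent ones.

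CRH is the peptide with which the hypothalamus starts the hormonal stress response, and neurons elsewhere, including interneurons of the hippocampus, also release it. It acts on the receptors Crhr1 and Crhr2, which mainly couple to Gs and cyclic AMP, while Crhbp is a secreted protein that binds CRH and keeps it from its receptors. The related urocortins also act on these receptors, and Crhr2 prefers them to CRH. Oxytocin and vasopressin are sister peptides made mostly by hypothalamic neurons whose axons reach many brain areas. Their receptors Oxtr, Avpr1a and Avpr1b couple mainly to Gq and phospholipase C and are known for their part in social memory, aggression and social stress.

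The mice had 16760009 to 24426804 read pairs counted to genes, except for 1 EE control mouse that was sequenced in 2 runs and reached 45872357 when the runs were summed. Levels are given as CPM, the read pairs of a gene per 1000000 counted, after TMM scaling, a correction for library composition. Granule cell markers were abundant, with Prox1 at 79.6 to 210.0 CPM, while 6 of 54 mice also had more than 100 CPM of choroid plexus markers in sum and thalamic marker sums ranged from 87.1 to 614.6 CPM. The 6 hypothalamic markers, which include Avp and Oxt, summed to 0.0489 to 0.60 CPM, with 0 read pairs in 48 mice for Otp, 39 for Sim1, 33 for Oxt, 22 for Hcrt and 7 each for Pmch and Avp. In a bulk sample, fewer cells of a type and less RNA per cell cannot be told apart.

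Per kilobase of exon, Crhr1, Crhbp and Oxtr lay above the ligand Crh, and Crhr2, Avpr1a and Avpr1b below it. Crhr1 came first with 4.03 ± 0.503 CPM per kb (SD, n = 54 mice), followed by Crhbp with 2.70 ± 0.989, Oxtr with 2.11 ± 0.303, Crh with 0.619 ± 0.196 and Crhr2 with 0.318 ± 0.0811. The vasopressin receptors were lowest, with 0.109 ± 0.0547 for Avpr1a and 0.00633 ± 0.0101 for Avpr1b. Within single mice Crhr1 was above Crhbp in 46 of 54 mice and Crhbp was above Oxtr in 41, so these neighbours overlapped. The order below them was nearly the same in each mouse, with Oxtr above Crh in 54 mice, Crh above Crhr2 in 52, Crhr2 above Avpr1a in 53 and Avpr1a above Avpr1b in 54.

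**Figure D1:**
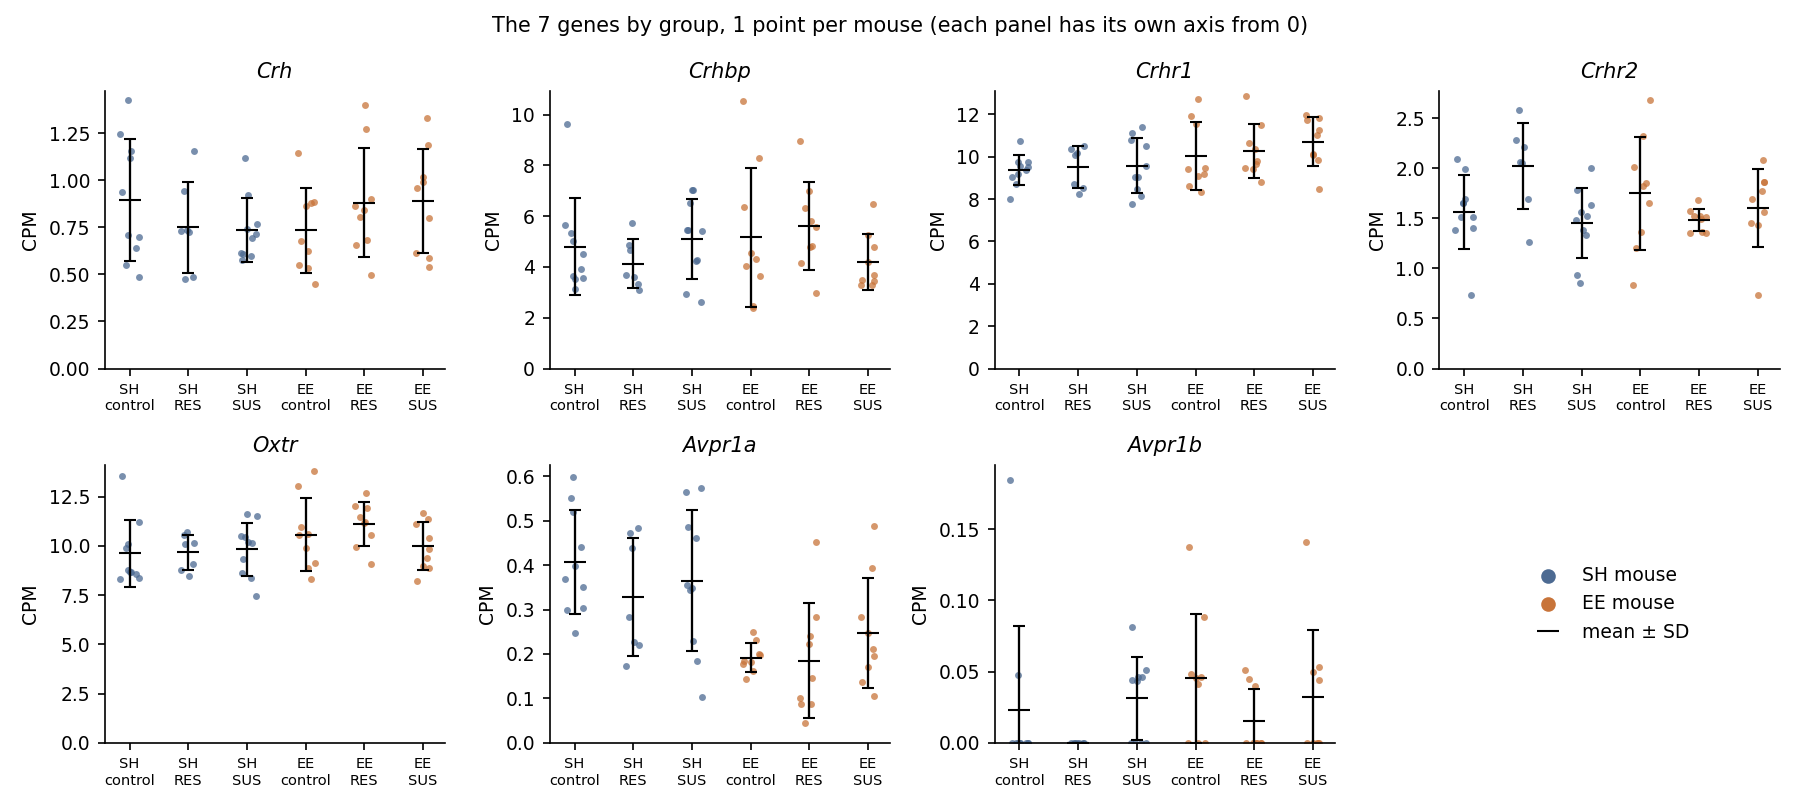
CPM of each of the 7 genes (vertical axes, each from 0) in the 6 groups (horizontal axes), with 1 point per mouse and bars for the group mean ± SD, cut at 0 for Avpr1b. The groups overlap for each gene, Avpr1a lies lower in the EE groups than in the SH groups, and Avpr1b is at 0 in 33 of 54 mice.

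Avpr1a was the gene of the system that differed between the housing conditions. It encodes the V1a receptor, through which vasopressin acts on neurons and blood vessels, and lies on chromosome 10 at chr10:122448499-122453452 (GRCm38, plus strand). The 250 bases before its start, chr10:122448249-122448498 (GRCm38.p6, plus strand, from RefSeq), are shown because this gene carries the housing difference, and the capitals mark the TATAAA motif.

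Avpr1a: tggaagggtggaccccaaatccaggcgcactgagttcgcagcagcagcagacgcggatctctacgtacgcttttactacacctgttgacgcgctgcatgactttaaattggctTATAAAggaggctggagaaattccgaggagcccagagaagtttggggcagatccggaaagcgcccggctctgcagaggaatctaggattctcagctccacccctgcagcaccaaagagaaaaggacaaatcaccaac

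TATAAA lies at positions -137 to -132 from the start and TGACG, the core of the cyclic AMP response element, at -165 to -161, both on the strand of the gene. Of 32851 promoter windows of the same length, read on both strands, 12.4% held TATAAA and 17.8% held TGACG, while 1.55% held the full element TGACGTCA, which contains TGACG and was not found before Avpr1a. Of the 7 genes, 5 had such a window, and in these TATAAA also occurred before Crhr2 at -39 to -34 and TGACG, on the other strand, before Crhbp at -64 to -60. A match of letters is a description and shows no binding.

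In SH control mice Avpr1a was at 0.248 CPM in the lowest mouse, 0.384 in the median and 0.599 in the highest. In SH RES mice these values were 0.172, 0.282 and 0.484 CPM, and in SH SUS mice 0.102, 0.352 and 0.573 CPM. The ranges of the 3 SH groups overlapped, while 3 of 7 SH RES and 3 of 10 SH SUS mice lay below the lowest SH control. In EE control mice the lowest, median and highest values were 0.145, 0.183 and 0.249 CPM. They were 0.0447, 0.146 and 0.453 CPM in EE RES mice and 0.106, 0.212 and 0.488 CPM in EE SUS mice. Of the 27 EE mice, 24 lay below the median of the SH mice. EE and SH controls barely overlapped, since 8 of 9 EE controls were below the lowest SH control. Among RES mice, 5 of 9 EE mice were below the lowest SH mouse, and among SUS mice 0 of 9. That lowest SH SUS mouse had 2 read pairs. Against the SH median of the same phenotype, 9 of 9 EE control, 7 of 9 EE RES and 7 of 9 EE SUS mice were lower.

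**Figure D2:**
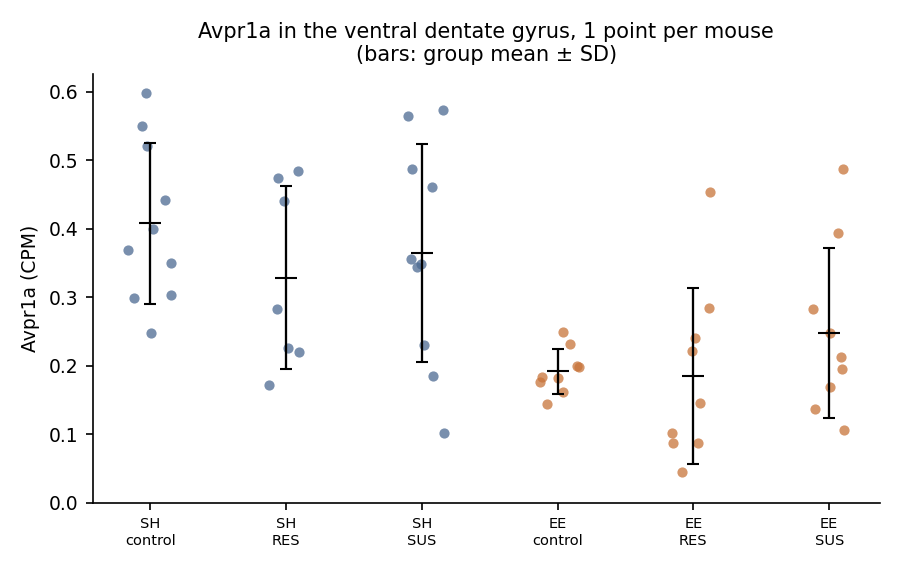
Avpr1a in CPM (vertical axis) by group (horizontal axis), with 1 point per mouse and bars for the group mean ± SD. The EE control mice sit between 0.145 and 0.249 CPM and the SH control mice between 0.248 and 0.599 CPM, with more overlap between the 2 housing conditions among RES and, most of all, SUS mice.

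Over the 3 EE groups against the 3 SH groups, Avpr1a was lower in EE by 0.80 on the log2 scale. The log2 fold change was -0.80 with a SE of 0.167 and a 95% interval of -1.13 to -0.46, which is 1.74-fold lower, with a 95% interval of 1.38 to 2.19. The quasi-likelihood test in edgeR, with Benjamini-Hochberg correction over 18283 genes, gave an adjusted p of 0.00508, which ranked 50 among them. Avpr1a was 1 of 6 tested genes of the system called in this comparison, in which 2.42% of all tested genes were called and 1.54% were called lower in EE. A permutation of the housing labels within control, RES and SUS mice, on log2 CPM with a prior count of 2, gave a difference of -0.62 and a two-sided p of 4e-05, where 1e-05 is the smallest p that 100000 resamples can give. When mice were left out 1 at a time, the log2 fold change stayed between -0.89 and -0.76 with an adjusted p of at most 0.0124 in 54 of 54 edgeR fits. Housing was given by cage, with more mice in an enriched than in a standard cage, while each of these tests counts mice as independent. Since the labels gave no cage, the part of shared cages in this difference was not tested.

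The call rests on few reads. The 54 mice had 342 Avpr1a read pairs in all and 1 to 13 each, of which 216 came from SH and 126 from EE mice. Summed over mice, the level was 0.372 CPM in SH with a 95% exact Poisson interval of 0.324 to 0.424 and 0.209 CPM in EE with an interval of 0.174 to 0.249, and these intervals cover counting error only. The low-count filter asked for at least 0.464 CPM in 7 mice, and Avpr1a met it in 9 mice, 8 of them SH, so it passed through the group in which it was high. Without the filter the adjusted p by edgeR was 0.0102 and the log2 fold change -0.80. On the opposite strand, where an antisense transcript overlaps the gene, 27 read pairs were counted.

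Within each phenotype the direction was shared, but no single comparison passed the adjustment. EE controls differed from SH controls by -1.06 (SE 0.275, edgeR p = 0.000316, adjusted p = 0.413), against a background of 0.00547% of genes called, and an exact permutation test gave p = 3.25e-05. Exact permutation p values, here and below, are unadjusted and mostly come from comparisons picked for a low edgeR p. The difference between EE RES and SH RES mice was -0.80 (SE 0.318, edgeR adjusted p = 0.187, exact permutation p = 0.0382), where 0.273% of genes were called. In SUS mice it was -0.53 (SE 0.273, edgeR adjusted p = 0.689, exact permutation p = 0.115), with 0.00547% of genes called. The housing difference was not shown to differ between phenotypes, as the interaction of defeat with housing was 0.39 (95% interval -0.31 to 1.09, edgeR adjusted p = 0.859) and that of SUS versus RES with housing 0.27 (-0.57 to 1.11, edgeR adjusted p = 0.986). Single mice moved both values, the former between 0.25 without EE RES mouse 6 and 0.45 without SH control mouse 1, the latter between 0.08 without EE SUS mouse 9 and 0.55 without EE RES mouse 6. In the test over all 6 groups, Avpr1a had an edgeR p of 0.000319 and an adjusted p of 0.0649, and 0.35% of genes were called.

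Markers of several cell types also moved with housing. In EE the granule cell gene Dsp was lower by 0.30 and the CA2 gene Rgs14 by 0.20 on the log2 scale, with log2 fold changes of -0.30 and -0.20 and edgeR adjusted p of 0.0281 and 0.00222. The myelin gene Mbp (0.25, edgeR adjusted p = 0.0468) and the endothelial receptor Flt1 (0.23, edgeR adjusted p = 0.0186) were higher in EE. Of the 8 granule cell markers 1 was called, as were 1 of 4 CA2, 2 of 4 oligodendrocyte and 1 of 4 endothelial markers. The CA2 markers did not move together. Their median log2 difference was 0.0016, with 2 of 4 higher in EE, 1 of these at an unadjusted edgeR p below 0.05. The summed granule cell markers spanned 748.8 to 1319 CPM in SH and 661.6 to 1372 CPM in EE, the CA2 markers 141.7 to 189.8 and 144.1 to 195.2 CPM, the oligodendrocyte markers 825.9 to 2030 and 863.2 to 1879 CPM, and the endothelial markers 78.3 to 112.7 and 79.5 to 133.6 CPM. With scores of the choroid plexus, thalamus, CA2 and CA3 markers as covariates, the Avpr1a difference was -0.71 (edgeR adjusted p = 0.0148), while the part of the other lists in it was not tested.

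Crhr1, the main receptor of CRH in the forebrain, lies on the plus strand of chromosome 11 at chr11:104132855-104175523. It was even across mice, with a coefficient of variation of 12.5%. Its lowest, median and highest levels were 7.77, 9.499 and 11.4 CPM in SH mice and 8.34, 10.1 and 12.9 CPM in EE mice. The 2 housing conditions overlapped over most of this range, although 8 of 27 EE mice were above the highest SH mouse. The log2 difference between EE and SH was 0.12 (SE 0.0467, 95% interval 0.03 to 0.22, edgeR p = 0.0114), and its adjusted p of 0.144 did not pass. Among SUS mice the medians were 11.02 CPM in EE and 9.29 CPM in SH, with a difference of 0.16 (edgeR adjusted p = 0.676, exact permutation p = 0.0665).

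Oxtr, the only known oxytocin receptor, lies on the minus strand of chromosome 6 at chr6:112473683-112489943 and was as even as Crhr1, with a coefficient of variation of 14.3%. The lowest, median and highest levels were 7.45, 9.91 and 13.6 CPM in SH mice and 8.23, 10.5 and 13.8 CPM in EE mice. Of 27 EE mice 17 were above the SH median, and only 1 was above the highest SH mouse. The log2 difference between EE and SH was 0.12 (SE 0.0535, 95% interval 0.02 to 0.23, edgeR p = 0.0246, adjusted p = 0.201). Among RES mice the medians were 11.2 CPM in EE and 10.1 CPM in SH, and 6 of 9 EE RES mice were above the highest SH RES mouse. That difference was 0.20 (SE 0.0983, edgeR adjusted p = 0.303, exact permutation p = 0.0185). Between the same groups the median log2 difference was -0.31 for granule cell, 0.12 for interneuron and 0.17 for CA1 markers. With scores of the choroid plexus, thalamus, CA2 and CA3 markers as covariates, the Oxtr difference among RES mice was 0.18. The part of the granule cell, interneuron and CA1 markers in it was not tested. Unadjusted p below 0.05 was reached by 3 of 6 tested genes of the system in EE versus SH, namely Avpr1a, Crhr1 and Oxtr, and by 17.6% of all genes tested.

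**Figure D3:**
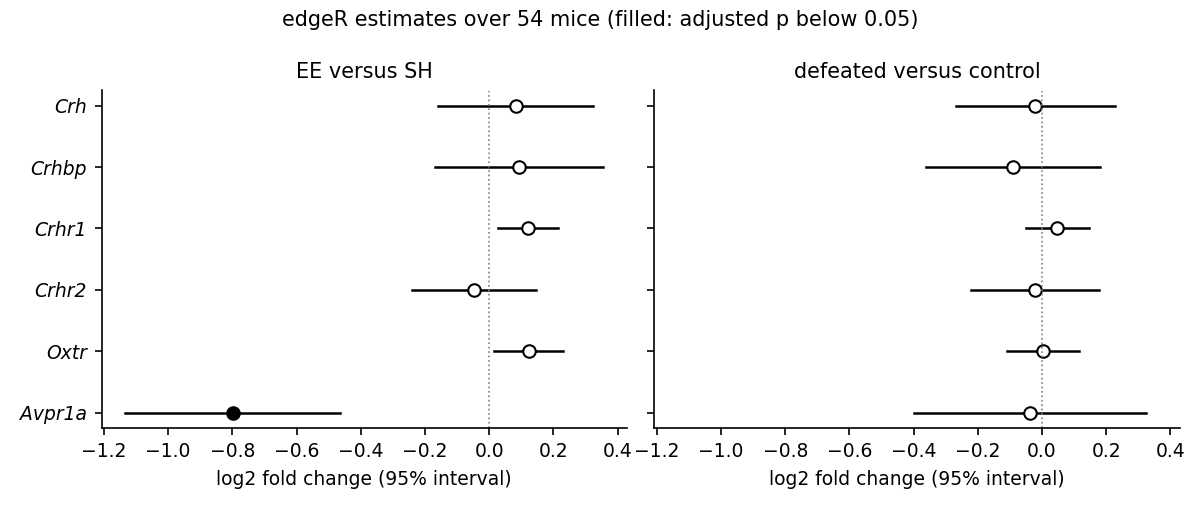
Log2 fold change of the 6 tested genes (vertical axis) for EE versus SH and for defeated versus control mice (horizontal axes), as edgeR estimates over 54 mice. Lines are 95% intervals and filled points have an adjusted p below 0.05. Avpr1a at -0.80 in EE versus SH is the single filled point, and the defeated versus control estimates lie between -0.09 and 0.05.

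Crhr2, the receptor that prefers urocortins, lies on the minus strand of chromosome 6 at chr6:55090049-55133016. It was highest in SH RES mice, with a lowest level of 1.26, a median of 2.07 and a highest of 2.59 CPM. SH SUS mice had 0.859, 1.51 and 2.01 CPM and SH control mice 0.736, 1.59 and 2.09 CPM. All 10 SH SUS mice were below the SH RES median, but the ranges of the groups overlapped. EE RES mice covered a narrow range of 1.35, 1.51 and 1.69 CPM, and 6 of 7 SH RES mice were above the highest of them. EE control mice had 0.838, 1.82 and 2.68 CPM and EE SUS mice 0.735, 1.69 and 2.08 CPM, wide ranges around that of the EE RES mice.

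None of the Crhr2 differences passed the adjustment, and those that involve SH RES mice share these 7 animals. Crhr2 differed by -0.49 between SH SUS and SH RES mice (SE 0.17, edgeR p = 0.00578, adjusted p = 0.934, exact permutation p = 0.0154), a comparison in which 0% of genes were called. The difference between SH RES and SH control mice was 0.37 (SE 0.169, edgeR adjusted p = 0.9998, exact permutation p = 0.0491), and 0% of genes were called. Between EE RES and SH RES mice it was -0.45 (SE 0.173, edgeR adjusted p = 0.176, exact permutation p = 0.00437). The SUS versus RES difference was higher in EE than in SH by 0.61 (SE 0.239, edgeR p = 0.0136, adjusted p = 0.977), and in EE alone it was 0.12 (95% interval -0.21 to 0.46, edgeR adjusted p = 0.9998). Over all mice the EE versus SH difference was -0.05 (95% interval -0.24 to 0.14, edgeR adjusted p = 0.848). Marker lists moved with these groups too. Within groups and over 54 mice, Crhr2 itself had a Pearson r of 0.16 with mossy cell and 0.05 with choroid plexus markers. With granule cell markers r was 0.37 and with oligodendrocyte markers -0.40. The 3 mossy cell markers had median log2 differences of -0.34 in SH SUS versus SH RES, 0.30 in SH RES versus SH control and -0.32 in EE RES versus SH RES mice, and of 0.42 for SUS versus RES by housing. The sum of these markers spanned 134.7 to 192.6 CPM in SH RES, 100.5 to 143.8 in SH SUS, 53.7 to 170.1 in SH control and 74.0 to 161.6 in EE RES mice. Choroid plexus markers differed by a median of -2.69 between SH RES and SH control mice, with 6 of 7 at an unadjusted edgeR p below 0.05 and 0 called. Granule cell markers summed to a median of 1130 CPM in SH RES, 1066 in SH SUS and 988.7 in EE RES mice, and oligodendrocyte markers to 1036, 1042 and 1258 CPM. With scores of the choroid plexus, thalamus, CA2 and CA3 markers as covariates, the Crhr2 difference between SH SUS and SH RES mice was -0.44, that between SH RES and SH control mice 0.37, that between EE RES and SH RES mice -0.37 and the SUS versus RES difference by housing 0.62, while the part of the mossy cell, granule cell and oligodendrocyte markers was not tested.

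Crh itself, on the minus strand of chromosome 3 at chr3:19693401-19695396, was detected in each mouse with 8 to 40 read pairs. The lowest, median and highest levels were 0.484, 0.824 and 1.43 CPM in SH control mice, 0.473, 0.733 and 1.15 CPM in SH RES mice and 0.577, 0.705 and 1.12 CPM in SH SUS mice. In EE control mice they were 0.447, 0.675 and 1.15 CPM, in EE RES mice 0.498, 0.843 and 1.40 CPM and in EE SUS mice 0.539, 0.960 and 1.33 CPM. Group ranges overlapped throughout, and the medians of defeated mice were above the control median in EE and below it in SH. The interaction of defeat with housing was 0.55 (SE 0.249, edgeR p = 0.0327) with an adjusted p of 0.755, and 0% of genes were called. In this contrast the choroid plexus, thalamus, CA2 and CA3 markers had medians of 1.52, 0.95, 0.03 and 0.32. With scores of these 4 lists as covariates, the Crh interaction was 0.40 (edgeR p = 0.128, adjusted p = 0.9996). The log2 difference between EE and SH was 0.08 with a 95% interval of -0.16 to 0.32 (edgeR adjusted p = 0.778).

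Crhbp, the CRH binding protein, lies on the minus strand of chromosome 13 at chr13:95431371-95444924 and varied most of the genes with more than 1 CPM on average, with a coefficient of variation of 36.6%. Its lowest, median and highest levels were 2.63, 4.50 and 9.64 CPM in SH mice and 2.37, 4.53 and 10.5 CPM in EE mice. The 2 housing conditions thus covered the same range, and their log2 difference was 0.09 (95% interval -0.17 to 0.35, edgeR adjusted p = 0.768). Median Crhbp was 3.66 CPM in SH RES and 5.43 CPM in SH SUS mice, and 5.58 CPM in EE RES and 3.68 CPM in EE SUS mice. The SUS versus RES difference was 0.31 in SH (95% interval -0.17 to 0.78) and -0.41 in EE (95% interval -0.86 to 0.05). Its interaction with housing was -0.71 (SE 0.328, edgeR p = 0.0341) and did not pass, with an adjusted p of 0.977 and 0% of genes called. Markers that correlated with Crhbp also shifted between the same groups. Median log2 differences in SUS versus RES were -0.07 in SH, -0.47 in EE and -0.37 by housing for the 5 CA1 markers. In SH the CA1 sign was thus opposite to that of Crhbp. For the 10 interneuron markers they were 0.09, -0.07 and -0.17. The 8 granule cell markers, which correlated negatively with Crhbp, had -0.10, 0.07 and 0.21, and the 3 mossy cell markers, also negative, -0.34, 0.08 and 0.42. The CA1 markers summed to medians of 106.3 CPM in SH RES, 104.8 in SH SUS, 136.7 in EE RES and 91.1 in EE SUS mice. The part of these lists in the Crhbp differences was not tested. With scores of the choroid plexus, thalamus, CA2 and CA3 markers as covariates, the Crhbp interaction was -0.49.

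Crhbp had the largest correlations with regional markers among the 6 tested genes. Within groups and over 54 mice, its log2 CPM had a Pearson r of 0.67 with CA1 markers, 0.65 with interneuron markers, -0.67 with granule cell markers and -0.60 with mossy cell markers. The 3 mice with the highest Crhbp, which were EE control 5, SH control 3 and EE RES 1 with 10.5, 9.64 and 8.96 CPM, were also the 3 with the highest CA1 marker sums, at 228.4, 251.4 and 254.5 CPM. Oxtr showed the same signs with smaller values, at 0.51 for interneuron, 0.46 for CA1 and -0.40 for granule cell markers, and correlated with Crhbp at 0.64. For Avpr1a the values reached from -0.25 with CA3 markers to 0.31 with red cell markers. These are descriptions, since the genes of a mouse share its library, its depth and its dissection.

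**Figure D4:**
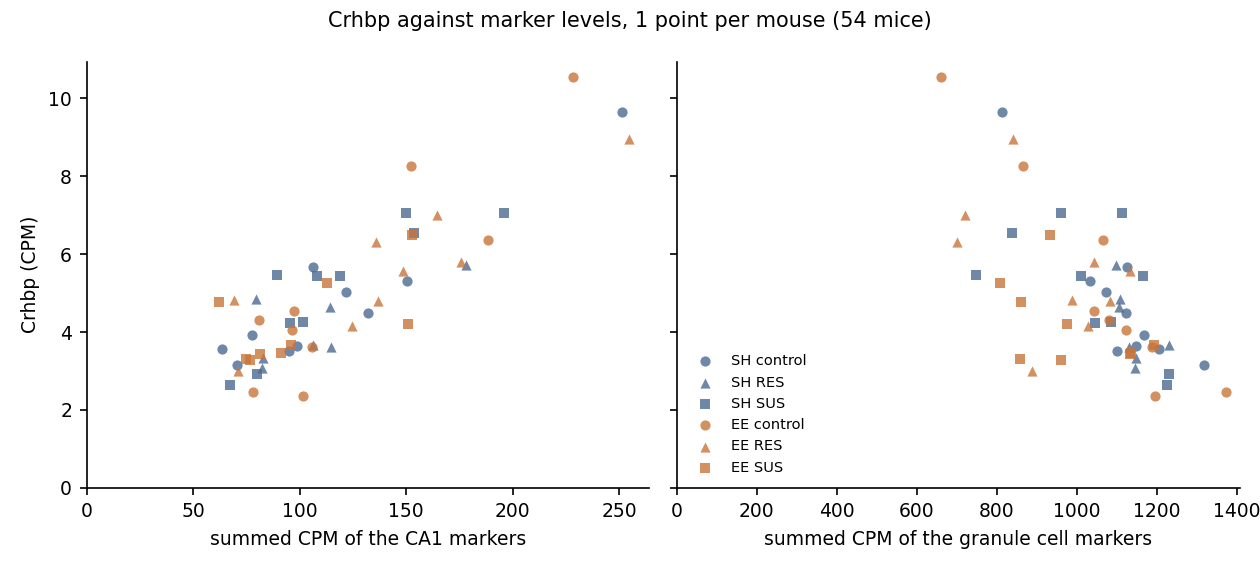
Crhbp in CPM (vertical axes) against the summed CPM of 5 CA1 markers and of 8 granule cell markers (horizontal axes), with 1 point per mouse, colour for housing and shape for phenotype. Mice with more CA1 marker RNA had more Crhbp, up to 10.5 CPM, and mice with more granule cell marker RNA had less.

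**Figure D5:**
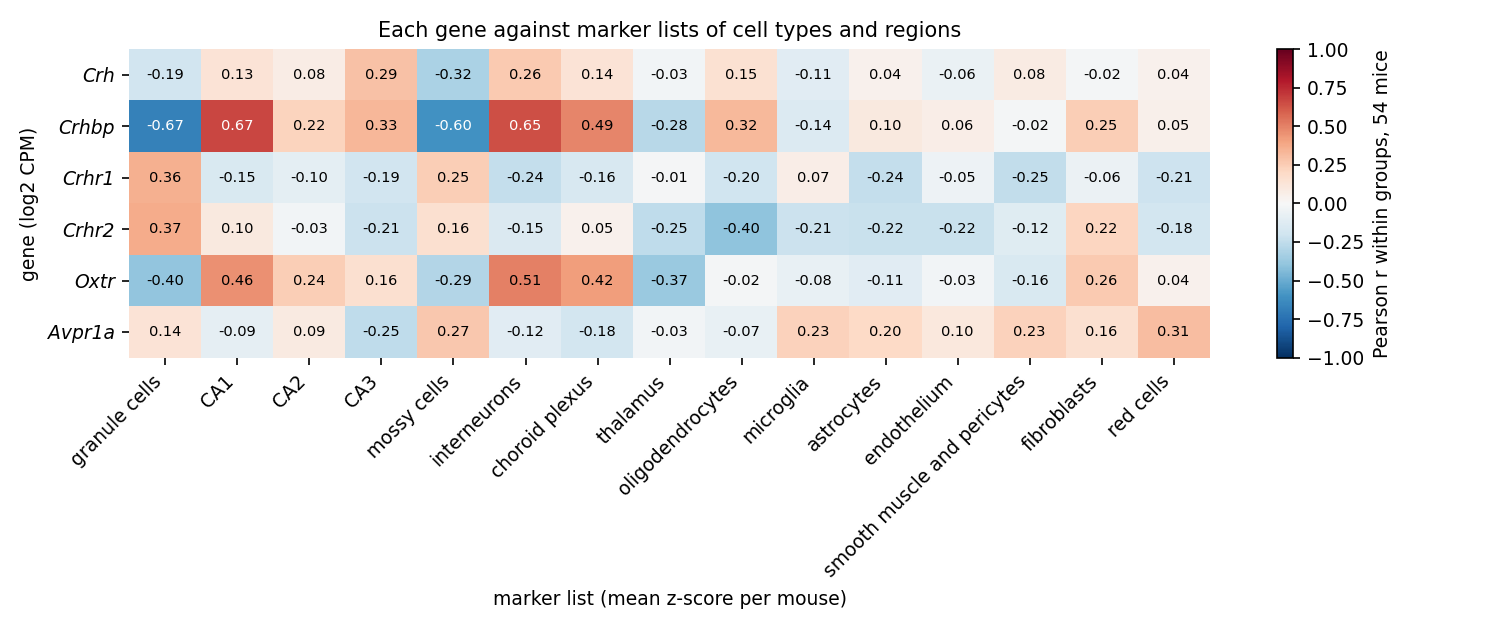
Pearson r within groups over 54 mice between the log2 CPM of each tested gene (rows) and the mean z-score of each marker list (columns). Crhbp has the largest values, 0.67 with CA1 and -0.67 with granule cell markers, and Oxtr has the same signs for both lists.

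The genes most like each member across mice were found by Pearson r of log2 CPM within groups among 18282 other genes. Those of Crhbp included the GABA-A receptor subunit gene Gabra3 (r = 0.86) and Gap43, a growth cone protein gene (0.86). For Oxtr these genes were Dgkg (0.77), Myh7 (0.76) and Dio3 (0.75), for Crhr1 Kdm5c (0.72), Ddi2 (0.68) and Gm15344 (0.66), and for Crhr2 Rsrp1 (0.63), Ubxn11 (0.63) and Obsl1 (0.60). Avpr1a, with Gm4117 (0.59), Ghr (0.58) and Gm17322 (0.55), and Crh, with Rxrb (0.52), Aldh1b1 (0.51) and Nf2 (0.50), had lower values, and these are also the tested genes with the fewest reads. Over the same mice Avpr1a correlated with Crhr1 at -0.32 and Crh with Crhbp at 0.30.

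Avpr1b, the V1b receptor and in the hippocampus best known from CA2, was too low to judge. It lies on the plus strand of chromosome 1 at chr1:131599239-131612000, had 32 read pairs in all, none in 33 of 54 mice, and did not pass the low-count filter. Reads were seen in 8 of 27 SH and 13 of 27 EE mice, with at most 4 per mouse. All 7 SH RES mice were at 0, which allows up to 0.0201 CPM over the group, and the other groups had median levels of 0 to 0.0453 CPM. CA2 markers were present in each mouse, as the gene Rgs14 had at least 45.8 CPM.

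RNA of the vasopressin, oxytocin and urocortin genes was also scarce in this tissue, and the peptides themselves were not measured. The vasopressin gene Avp had 136 read pairs, the oxytocin gene Oxt 29, and the urocortin genes Ucn and Ucn2 13 each, over 54 mice, while Ucn3 had none, which allows up to 0.00253 CPM. Avp was seen in 25 SH and 22 EE mice and Oxt in 6 SH and 15 EE mice, but none of these genes passed the filter, and no test is drawn from them. The kidney-type vasopressin receptor Avpr2 had 3 read pairs on its own strand and 1154 on the other, where L1cam and Arhgap4 overlap it.

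No difference between defeated and control mice was detectable in these genes. Between defeated and control mice 0 of 6 tested genes were called by edgeR, 0 were called by limma or DESeq2, beside 0.0438% of all genes called by edgeR. An unadjusted p below 0.05 was reached by 0 of 6, beside 4.81% of all genes. The smallest p was 0.336, for Crhr1, with a log2 difference of 0.05 and a 95% interval of -0.05 to 0.14. The intervals were narrow for Oxtr, at -0.11 to 0.11, and wider for Crhr2 at -0.22 to 0.18, Crh at -0.27 to 0.23, Crhbp at -0.36 to 0.18 and Avpr1a at -0.40 to 0.32. In the same comparison 3 of 3 red cell markers were called higher, and the thalamus markers had a median log2 difference of 0.48 and the choroid plexus markers of -0.89, which did not pass for any gene.

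Across the 13 comparisons, the 6 tested genes gave 78 estimates, of which 1 passed the adjustment. In SH SUS versus SH control mice, for example, 0 of 6 were called, with a smallest edgeR p of 0.134, beside 0.0328% of all genes. By the criterion of the study, a limma p below 0.05 with a fold change above 1.3, 7 of the 78 were DEGs. These were Avpr1a in EE versus SH, where 0.613% of genes met the criterion, in EE versus SH controls (1.12%) and in EE RES versus SH RES mice (3.24%). Crhr2 met it in SH SUS versus SH RES (1.14%), SH RES versus SH control (1.21%), EE RES versus SH RES and the SUS versus RES difference by housing (2.29%). The other 7 comparisons held 0 such genes of the system. All genes met the criterion at 1.1% in EE SUS versus EE RES, 0.93% in SH SUS versus SH control, 1.94% in EE SUS versus EE control, 1.17% in EE RES versus EE control, 1.56% in EE SUS versus SH SUS, 0.481% in defeated versus control mice and 1.68% in the interaction of defeat with housing.

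Genes around the receptors did not pass the test with housing. In EE versus SH the 8 tested genes of peptide processing and degradation, 18 of G protein signalling, 10 of receptor regulation and 2 related ligands and receptors gave 0 calls by edgeR, with 0, 6, 2 and 0 genes at an unadjusted p below 0.05. Of all tested genes 2.42% were called and 17.6% had an unadjusted edgeR p below 0.05. The median log2 fold changes of the 4 lists were 0.01, 0.02, 0.01 and -0.02, beside 0.00433 for all tested genes. The smallest p of each list belonged to the carboxypeptidase gene Cpe (0.05, edgeR adjusted p = 0.398), the adenylyl cyclase gene Adcy2 (-0.06, edgeR adjusted p = 0.0703), the G protein regulator gene Rgs4 (0.13, edgeR adjusted p = 0.0858) and the melanocortin receptor gene Mc4r (-0.11, edgeR adjusted p = 0.517). In defeated versus control mice the 4 lists also gave 0 calls, with 2, 2, 0 and 0 genes at an unadjusted p below 0.05. Among all tested genes the shares were 0.0438% called and 4.81% at an unadjusted edgeR p below 0.05.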

How the data were processed

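The authors sliced flash-frozen brains coronally and then horizontally and took the ventral dentate gyrus with a puncher. Libraries were prepared by a standard Illumina protocol. The authors removed low-quality reads and mapped the others with STAR to GRCm38 under Ensembl annotation. They name featureCounts for quantification, but the deposited raw counts are laid out as STAR writes them, with columns for unstranded, forward-strand and reverse-strand read pairs, and are not normalized. The reverse-strand counts were used, since the forward strand held 3.51 to 4.13% of stranded counts. Lines for unmapped (13.9 to 19.9% of pairs), multimapping (8.7 to 12.1%), unassigned (19.9 to 28.8%) and ambiguous pairs (0.836 to 1.12%) were left out. Of 45318 identifiers 44671 matched the GRCm38 annotation used for names and coordinates. Summing both runs of EE control mouse 9 left 54 mice from 55 libraries, grouped by the sample labels. At a median of 21552884 counted pairs per mouse, the level of Avpr1a or Avpr1b in a mouse rests on at most 13 read pairs.

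Counts were filtered with filterByExpr (at least 0.464 CPM, or 10 read pairs at the median library size, in 7 mice), scaled by TMM and tested with edgeR 4.0.16 in R 4.3.3, in 1 model over 6 groups, with Benjamini-Hochberg adjustment over 18283 genes. The SE is the log2 fold change over the square root of F. limma 3.58.1 (voom) and DESeq2 1.42.0 were alternatives. Two-sided exact permutation tests of log2 CPM (NumPy 2.4.6) were run between pairs of groups where a member had an edgeR p below 0.05. Avpr1a in EE SUS versus SH SUS was added to these. Their p values are unadjusted retests of picked comparisons and give no separate support. Other scalings, filters, strands, covariates, blocks and left-out mice were tried. The fit was checked on simulated counts.

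The members, gene lists and marker lists were chosen with earlier results of these data known. Named genes were the members, with fold changes printed for a p below 0.05 or the smallest p and for the EE versus SH and defeated versus control contrasts, the 3 genes most like each member, list genes with an adjusted p below 0.05 or the smallest p, and markers that moved with a member, of which some are not reported here. A member was too low to judge where it failed the filter. The permutation within phenotype and the summed counts for Avpr1a were added after its values had been seen.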

Additional observations from a re-analysis of the deposited data

Results flagged for a closer look

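Single mice stood apart from their group in 5 of the 42 combinations of gene and group. The rule flags about 1 in 20 for normally distributed values, which the few reads of Avpr1b are not. Avpr1b in SH RES mice, at 0 in all 7, could not be flagged. Whether 5 exceeds what the rule gives in such data was not tested. Crhbp was at 9.64 CPM in SH control mouse 3, far above the next SH control at 5.67 CPM, and this mouse also had the highest sum of choroid plexus markers of all mice, 981.6 CPM. Without it the Crhbp difference between defeated and control mice was -0.0023 in place of -0.09, and neither estimate passed the test. Crhr2 was lowest, apart from the others, in SH control mouse 7 at 0.736 CPM and in EE SUS mouse 1 at 0.735 CPM. Leaving out the former took the SH RES versus SH control difference of Crhr2 from 0.37 to 0.29, and leaving out the latter took its SUS versus RES difference by housing from 0.61 to 0.70. Avpr1b stood out in SH control mouse 10 at 0.184 CPM, which is 4 read pairs, and in EE SUS mouse 4 at 0.141 CPM, which is 3.

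A difference between the housing conditions under the same contrast, at an unadjusted p below 0.05, was found for 3 genes. SUS versus RES differed between EE and SH by -0.71 for Crhbp (edgeR adjusted p = 0.977) and by 0.61 for Crhr2 (edgeR adjusted p = 0.977), and defeated versus control by 0.55 for Crh (edgeR adjusted p = 0.755). None passed the adjustment over all genes.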

How the results depend on the processing

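The lower Avpr1a in EE kept its direction under each alternative that gave a value for it. Its edgeR or limma adjusted p of 0.00208 to 0.0148 kept its side of the threshold, while the permutation and the summed counts have no adjusted p. The filter of at least 1 CPM in 7 mice leaves Avpr1a out, so 0 members were called there, and DESeq2 gave it no adjusted p in EE versus SH, in EE RES versus SH RES or over the 6 groups. Summed counts without TMM gave -0.83. Over the 6 groups, 1 member, Avpr1a, was called with unstranded counts (adjusted p = 0.0415) and with the replicate block (0.0336), and leaving out single mice gave 0 to 1, with 1 without SH SUS mouse 7, EE RES mouse 6 or EE SUS mouse 9; the cause was not tested. By the criterion of the study, SUS versus RES held 1 DEG among the members over 6 groups and 2 over the 35 defeated mice, the added gene being Crhbp in EE. Among single members 241 recomputed values kept direction and side, 6 reversed and 2 passed the threshold newly, as did 1015, 36 and 3 with a mouse left out.

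Defeated versus control differences close to 0 changed sign in places. Crh was 0.0146 with unstranded counts and 0.00584 with the replicate block, Crhr2 0.00872 with limma and 0.0857 with regional covariates, Oxtr -0.000918 with the block and Avpr1a 0.01997 with regional covariates. With single mice left out they ranged from -0.0512 to 0.0291 for Crh, -0.138 to 0.00479 for Crhbp, -0.0654 to 0.0252 for Crhr2, -0.0158 to 0.0369 for Oxtr and -0.105 to 0.0028 for Avpr1a.

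The labels do not say whether the replicate numbers stand for more than the name of a mouse. Of 126 same-numbered pairs 44 had a correlation of deviations over 0.1, and 7 of 54 mice correlated best with their own number. The mean correlation was 0.034 over same-numbered pairs and -0.0040 over 1086 pairs with other numbers. Whether the numbers mark a shared batch was not tested. The block moved calls over all genes in EE versus SH from 442 to 581 and in EE RES versus SH RES from 50 to 228, and changed no other call among the members than that over 6 groups.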
